A study of Homo sapiens with 24 samples.

Results

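The transcripts of 10 genes that sense or process nucleotides or nucleosides outside or inside the cell were examined. The cells were RWPE1 prostate epithelial cells treated with 1,25(OH)2D (calcitriol, the active vitamin D hormone). The genes were P2RY1, P2RY2, P2RY6, P2RX4, ADORA1 and ADORA2B, which encode receptors, and NT5E, ADA, ADK and CDA, which encode enzymes. Every probe set of the Affymetrix U133 Plus 2.0 array whose annotation gave only one of these symbols was taken, which gave 17 of the 54613 probe sets. RWPE1 is a single immortalized, non-tumorigenic human prostate epithelial line. Cultures received 100 nM 1,25(OH)2D or vehicle (ethanol) over 6, 24 or 48 h. Each of the 6 groups had 4 arrays, 24 in all, and the medium of the 48 h cultures was renewed at 24 h. The labels call the samples of a group biological replicates without saying how they were separated, so p-values measure the spread between these samples.

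Cells release ATP and UTP, which act on P2 receptors: P2Y receptors couple to G proteins and P2X receptors are ion channels opened by ATP. Enzymes on the cell surface strip the phosphates, and NT5E (CD73) makes adenosine from AMP, which acts on the P1 receptors ADORA1 and ADORA2B. Adenosine is removed by deamination to inosine by ADA or by phosphorylation to AMP by ADK, while CDA deaminates cytidine and deoxycytidine for pyrimidine salvage. The vitamin D receptor commonly binds DNA as a dimer with RXR at a direct repeat of a short hexamer with a 3-base spacer.

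Sequences are shown for the genes whose transcripts changed most or fell late, since these are the ones a reader may wish to set beside the values. The study's list of predicted vitamin D receptor sites holds a site of 15 bases for P2RY2, on chromosome 11. The study selected this gene for a binding test and did not name it among the genes where it reported receptor binding. In the printed site the capitals mark the outer 6 bases on each side and the lower case letters the spacer.
P2RY2 predicted site: GGGTCAccaAGCTGA
The promoters of CDA and NT5E, from 250 bases before to 50 bases after the gene start, come from RefSeq (GRCh38.p14). CDA lies at chr1:20588847-20589146 and NT5E at chr6:85449833-85450132, both on the plus strand. Capitals mark matches to the hexamers AGGTCA or GGGTCA or AGTTCA or GGTTCA, searched on both strands.
CDA promoter: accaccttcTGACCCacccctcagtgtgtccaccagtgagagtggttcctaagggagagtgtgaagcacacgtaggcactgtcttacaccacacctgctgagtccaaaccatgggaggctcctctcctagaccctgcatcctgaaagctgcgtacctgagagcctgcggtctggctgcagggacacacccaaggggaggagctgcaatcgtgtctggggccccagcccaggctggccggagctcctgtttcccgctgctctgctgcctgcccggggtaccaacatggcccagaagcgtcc
NT5E promoter: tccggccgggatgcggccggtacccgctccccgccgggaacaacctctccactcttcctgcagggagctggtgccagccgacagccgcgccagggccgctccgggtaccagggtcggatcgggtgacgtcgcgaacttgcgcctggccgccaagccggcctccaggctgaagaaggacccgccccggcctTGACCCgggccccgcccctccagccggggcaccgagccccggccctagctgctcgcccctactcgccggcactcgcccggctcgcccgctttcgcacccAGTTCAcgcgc
The single match in CDA began at base -241, and those in NT5E at bases -60 and 40, counted from the gene start with no base 0. The sequence table matched 8 of the 10 genes with 9 promoters, and P2RY2 and P2RY6 had none. Of the 9 promoters 5 held such a hexamer (those of CDA, P2RY1, NT5E, P2RX4 and one of the ADK promoters), against 38.6% of all 35116 promoters of that length. None of the 9 held a direct repeat of these hexamers with a 3-base spacer, which 26 of all promoters (0.074%) held. In the P2RY2 site the leading 6 bases matched a hexamer and the last 6 did not. A match is a description of the letters and not a binding site.

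The values are gcRMA values on the log2 scale, so differences are log2 fold changes. A filter on low values (3.21 reached by 3 of the 4 arrays of at least 1 group) kept 13 of the 17 probe sets. They covered 8 genes, and the 4 other probe sets lay below the filter. A change was called where limma gave an adjusted p (Benjamini-Hochberg, over all tested probe sets) under 0.05. Values of different probe sets are not comparable in level. KRT5 and KRT14, keratins of basal epithelium, lay between 15.2 and 16.2 on all arrays. KRT15, another basal keratin, averaged 10.6, 10.28 and 10.5 with 1,25(OH)2D at 6, 24 and 48 h. With vehicle it averaged 10.43, 11.8 and 12.42, so the groups were close at 6 h and the vehicle level rose later. The 4 other epithelial markers measured (KRT8, KRT18, EPCAM and CDH1) averaged between 7.42 and 14.5 in every group. Among 16 markers of fibroblasts, endothelium and leukocytes, 14 had a probe set and 1, COL1A1, exceeded 8 on any array. The endothelial receptor KDR averaged 3.07, 3.60 and 3.675 with 1,25(OH)2D at 6, 24 and 48 h. With vehicle it averaged 3.41, 5.02 and 5.25, so its level rose more with time in vehicle cultures. The part of KRT15 and KDR in the results was not tested. CYP24A1, the 24-hydroxylase that vitamin D induces, averaged 13.7, 9.96 and 9.75 with 1,25(OH)2D at 6, 24 and 48 h and between 3.66 and 3.86 with vehicle. In values taken as deviations from the group means, 75.2% of the variance over 12008 genes lay on 1 component, and 4 arrays stood apart on it: replicates 1 and 4 with 1,25(OH)2D at 24 h, replicate 1 with vehicle at 6 h and replicate 1 with vehicle at 24 h. The mean SD within a group was 0.256 with 1,25(OH)2D and 0.27 with vehicle at 6 h. It was 0.412 with 1,25(OH)2D and 0.259 with vehicle at 24 h, but 0.157 with 1,25(OH)2D and 0.112 with vehicle at 48 h.

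At 6 h 1,25(OH)2D raised P2RY2 and CDA and lowered ADORA2B, at 24 h it raised CDA, and at 48 h it raised P2RY2 and CDA and lowered NT5E. In probe sets, 3 of 13 changed at 6 h, against 2.69% of all tested. At 24 h 1 of 13 changed, against 0.354%, and at 48 h 5 of 13, against 9.64%, 3 of them of NT5E. By brightest probe set, of 8 genes 2 rose and 1 fell at 6 h, against 3.41% of all tested genes called. At 24 h 1 gene rose, against 0.516%, and at 48 h 2 rose and 1 fell, against 12%. The members were chosen with earlier results of these data known, so these shares measure no excess. The 1,25(OH)2D and vehicle arrays did not overlap for 3, 3 and 6 of the 13 probe sets, and for 7.32%, 5.19% and 16.1% of all tested. The median change of the 13 was -0.07, 0.05 and -0.07 (log2) at the 3 times and that of all tested probe sets -0.03, 0.02 and -0.01.

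**Figure D1:**
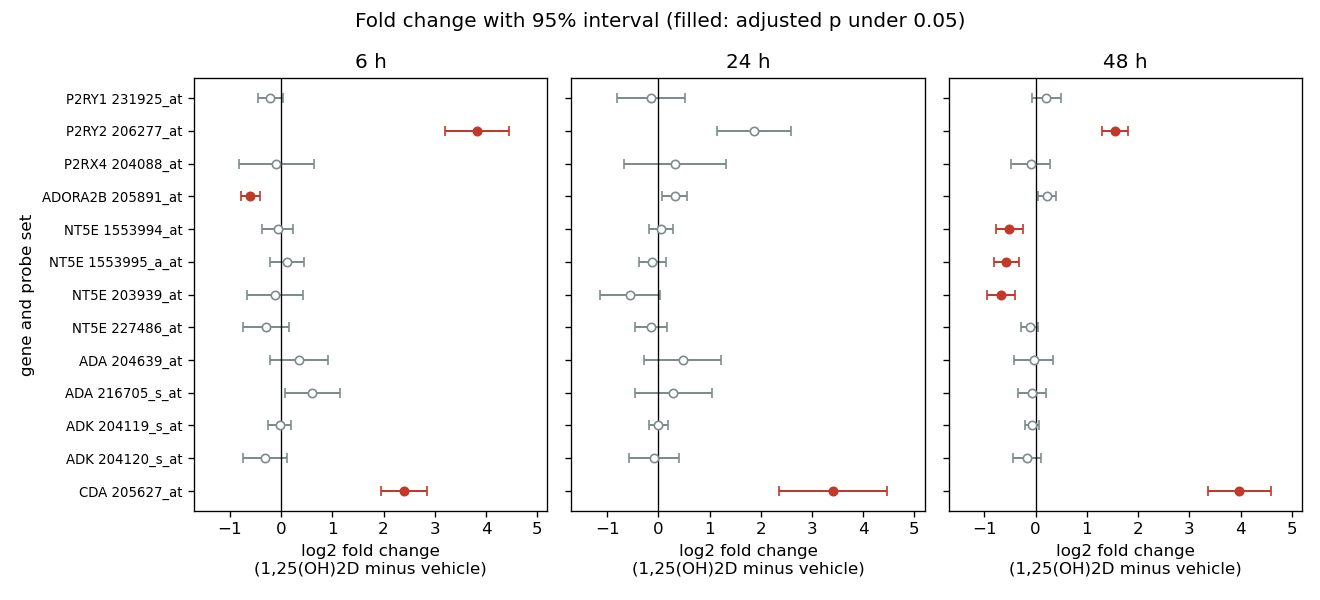
Log2 fold change (1,25(OH)2D minus vehicle, x axis) with its 95% interval from limma for each of the 13 tested probe sets (rows) at 6, 24 and 48 h. Filled points passed an adjusted p of 0.05. P2RY2 and CDA lie far to the right at all times. At 48 h all 4 NT5E points lie left of zero, 3 of them filled, and the interval of the other includes zero.

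P2RY2, a G protein-coupled receptor for ATP and UTP, had the largest early response of these genes. At 6 h its single probe set read 8.95, 9.00, 8.41 and 8.66 with 1,25(OH)2D, against 5.74, 4.76, 4.57 and 4.68 with vehicle. Every treated array lay well above every vehicle array, and vehicle replicate 1 was the high one of its group. The change was 3.82 (log2, SE 0.268, limma adjusted p = 0.000208), and the ratio of mean linear values was 13.5. RNA from whole cultures cannot tell a change per cell from a change in the number of cells that carry a transcript.

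At 24 h P2RY2 read 5.18, 6.02, 5.66 and 6.61 with 1,25(OH)2D, against 4.46, 3.83, 3.77 and 3.97 with vehicle. The groups did not overlap, and the treated arrays were spread over more than 1 log2 unit, with replicate 4 highest and replicate 1 lowest. The difference of 1.86 (SE 0.308) missed the threshold (limma adjusted p = 0.0721). It passed in 4 of 18 alternative settings, among them without replicate 1 with 1,25(OH)2D (2.09, limma adjusted p = 0.0409), and the adjusted p ranged between 0.000222 and 0.764. At 48 h the values were 5.74, 6.02, 5.74 and 5.52 with 1,25(OH)2D, against 4.08, 4.19, 4.19 and 4.39 with vehicle. The groups were tight and separate, and P2RY2 rose by 1.54 (SE 0.111, limma adjusted p = 0.000151), a ratio of mean linear values of 2.93. With an offset of 32 added on the linear scale, which shrinks the changes of dim probe sets, the rise was 0.77 and was still called (limma adjusted p = 0.000711). In order of mean level the groups were 1,25(OH)2D at 6, 24 and 48 h, then vehicle at 6, 48 and 24 h. The arrays of the neighbours 1,25(OH)2D 24 h and 48 h overlapped, as did those of vehicle 48 h and 24 h and those of 1,25(OH)2D 48 h and vehicle 6 h.

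**Figure D2:**
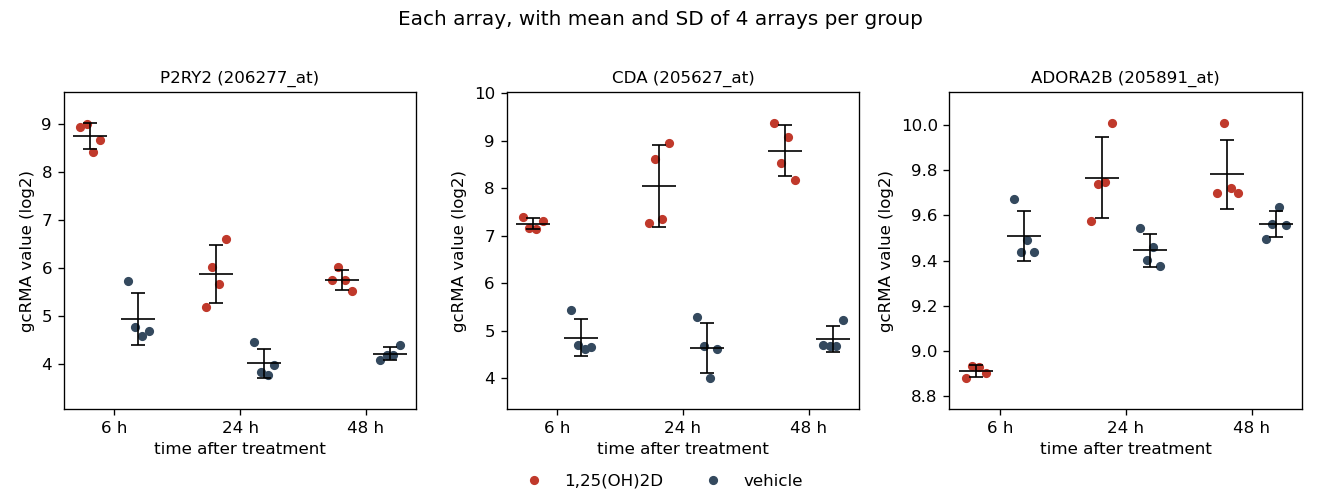
gcRMA value (log2, y axis) of each array for P2RY2, CDA and ADORA2B at 6, 24 and 48 h, with 1,25(OH)2D left of vehicle. Bars give the mean and SD of 4 arrays. P2RY2 is highest with 1,25(OH)2D at 6 h (mean 8.76), CDA with 1,25(OH)2D at 48 h (mean 8.79), and ADORA2B is lowest with 1,25(OH)2D at 6 h (mean 8.91).

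The other P2 receptors gave no call. P2RX4, an ATP-gated channel, lay between 5.50 and 7.74 on its single probe set. With 1,25(OH)2D minus vehicle it differed by -0.09 (95% interval -0.82 to 0.64) at 6 h, 0.32 (-0.68 to 1.32) at 24 h and -0.10 (-0.48 to 0.28) at 48 h. The treated and vehicle arrays overlapped at each time, and intervals this wide leave room for a change in either direction. P2RY1, an ADP receptor, was dim, at 3.05 to 4.36 on the brighter of its probe sets, and differed by -0.21 (-0.46 to 0.04), -0.14 (-0.80 to 0.52) and 0.21 (-0.08 to 0.49) at the 3 times. Its dimmer probe set stayed between 2.54 and 2.72, below the filter. P2RY6, a UDP receptor, stayed between 2.16 and 2.36 on its single probe set, also below it. P2RY2 and P2RY6 are neighbours in the RefSeq annotation with 0 protein-coding genes between them, and P2RY6 was at the bottom of the scale in every group, also where P2RY2 was high.

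Of the adenosine receptors, ADORA2B, the low-affinity receptor that couples to adenylyl cyclase, fell at 6 h. Its single probe set read 8.88, 8.93, 8.93 and 8.90 with 1,25(OH)2D, against 9.67, 9.44, 9.49 and 9.44 with vehicle. The treated arrays were nearly identical and all below the vehicle arrays. It fell by 0.60 (SE 0.0822, limma adjusted p = 0.00621), a ratio of mean linear values of 0.658. Centring each array on its median kept the value (-0.61) but ended the call (limma adjusted p = 0.0983), the highest of a range over the alternatives that began at 7.39e-05. The other 17 alternatives kept it.

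Later, ADORA2B was above vehicle. At 24 h it read 9.58, 9.74, 9.75 and 10.01 with 1,25(OH)2D, against 9.54, 9.40, 9.46 and 9.38 with vehicle, and at 48 h 9.70, 10.01, 9.72 and 9.70 with 1,25(OH)2D, against 9.49, 9.56, 9.64 and 9.56 with vehicle. The treated arrays lay above the vehicle arrays at both times, by a small margin. Neither difference passed (0.32, SE 0.105, limma adjusted p = 0.434 at 24 h, and 0.22, SE 0.0786, limma adjusted p = 0.137 at 48 h). The 24 h difference passed in 2 of 18 alternatives, namely by SAM, another test, and without the arrays that stood apart. ADORA1, the receptor that inhibits adenylyl cyclase, was below the filter on both of its probe sets, at 2.81 to 3.04 on the brighter and 1.96 to 2.22 on the dimmer. Tested with no filter, none of the 4 dim probe sets of P2RY1, P2RY6 and ADORA1 was called at any time.

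NT5E, the ecto-5'-nucleotidase that produces adenosine, fell at 48 h on 3 of its 4 probe sets, here told apart by brightness. The brightest probe set read 8.46, 8.80, 8.54 and 8.31 with 1,25(OH)2D, against 9.21, 9.43, 9.07 and 9.12 with vehicle. All treated arrays were below all vehicle arrays. It fell by 0.68 (SE 0.118, limma adjusted p = 0.0108). The second brightest read 6.89, 6.62, 6.98 and 6.61 with 1,25(OH)2D, against 7.18, 7.42, 7.28 and 7.49 with vehicle, and fell by 0.57 (SE 0.108, limma adjusted p = 0.0149). The third brightest read 5.42, 5.44, 5.11 and 5.57 with 1,25(OH)2D, against 6.12, 5.83, 5.78 and 5.86 with vehicle, and fell by 0.51 (SE 0.112, limma adjusted p = 0.0268). The groups were separate on each of these 3 probe sets. The dimmest lay at 4.15 to 5.47 and differed by -0.11 (95% interval -0.28 to 0.05).

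The 3 NT5E calls differed in how well they held. The call of the third brightest was lost without 1,25(OH)2D replicate 1 (-0.53, limma adjusted p = 0.0542) and without vehicle replicate 1 (-0.44), 2 (-0.54) or 4 (-0.53), with an adjusted p of 0.0128 to 0.0754 over all alternatives. It was lost with no filter too (limma adjusted p = 0.0754), and with an offset of 32 on the linear scale the fall was 0.31 and still called. Those of the other 2 held when any 1 array was left out (-0.77 to -0.60 for the brightest and -0.64 to -0.51 for the second brightest), but each was lost in 1 of 17 alternatives. For the brightest this was the fit of all arrays at once (limma adjusted p = 0.122, in a range of 0.00371 to 0.122), and for the second brightest the replicate block (limma adjusted p = 0.0791, in a range of 0.00658 to 0.0791). The mean of the 4 probe sets fell by 0.47 at 48 h (limma adjusted p = 0.000517). At 6 h none of the 4 was called, with differences of -0.29 to 0.11, and likewise at 24 h, with -0.56 to 0.05. The -0.56 at 24 h was that of the brightest (95% interval -1.14 to 0.03), which read 9.08, 8.67, 8.82 and 7.89 with 1,25(OH)2D and 8.99, 9.42, 9.06 and 9.21 with vehicle. Replicate 4 with 1,25(OH)2D, 1 of the arrays that stood apart, was far below the rest.

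**Figure D3:**
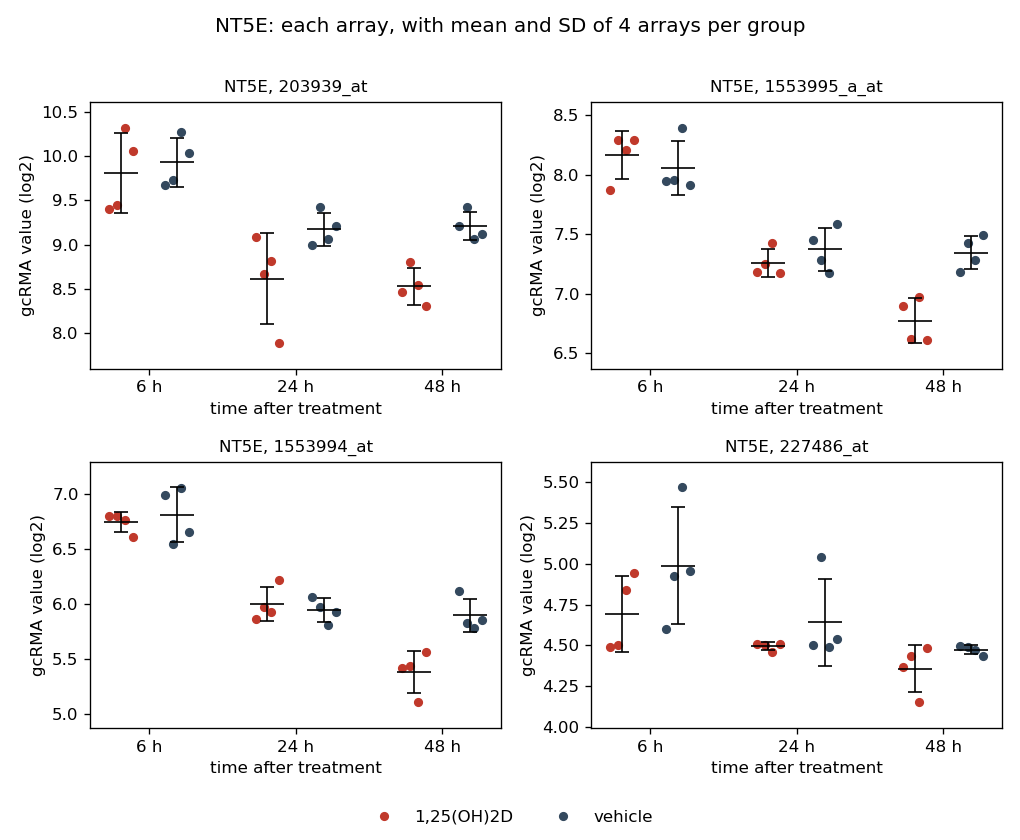
gcRMA value (log2, y axis) of each array for the 4 probe sets of NT5E at 6, 24 and 48 h, with 1,25(OH)2D left of vehicle and the mean and SD of 4 arrays as bars; panel titles carry the probe set identifiers, brightest first. At 48 h the treated arrays lie below the vehicle arrays on the 3 brightest probe sets, and both groups lie lower at 24 h than at 6 h on these 3.

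The enzymes that remove adenosine gave no call. ADA, adenosine deaminase, read between 8.61 and 10.36 on the brighter of its probe sets, where 1,25(OH)2D differed from vehicle by 0.36 (95% interval -0.21 to 0.92), 0.48 (-0.28 to 1.23) and -0.04 (-0.43 to 0.35) at 6, 24 and 48 h. On the dimmer one ADA read 7.94, 8.04, 7.53 and 7.65 with 1,25(OH)2D at 6 h, against 7.85, 7.10, 6.82 and 6.95 with vehicle. Vehicle replicate 1 lay within the treated range and the other vehicle arrays below it. The difference was 0.61 (SE 0.233, limma adjusted p = 0.4), and without vehicle replicate 1 it was 0.83 and passed (limma adjusted p = 0.0286, in a range of 0.0286 to 0.796 over the alternatives). ADK, adenosine kinase, hardly varied on the brighter of its probe sets, where all 24 arrays lay between 12.11 and 12.48. Its differences were -0.03 (-0.25 to 0.19), 0.00 (-0.18 to 0.19) and -0.07 (-0.21 to 0.06), and those of the dimmer one were -0.32, -0.09 and -0.16, with overlapping arrays at each time.

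CDA, cytidine deaminase, rose at all 3 times. At 6 h its single probe set read 7.40, 7.16, 7.14 and 7.30 with 1,25(OH)2D, against 5.44, 4.69, 4.61 and 4.66 with vehicle. At 24 h it read 7.27, 8.60, 7.35 and 8.94 with 1,25(OH)2D, against 5.28, 4.66, 4.00 and 4.61 with vehicle. At 48 h it read 9.37, 8.53, 9.08 and 8.17 with 1,25(OH)2D, against 4.69, 4.67, 4.67 and 5.23 with vehicle. No treated array overlapped any vehicle array, and the treated group at 24 h was lower in replicates 1 and 3 and higher in replicates 2 and 4. The rises were 2.40 (SE 0.19, limma adjusted p = 0.00035) at 6 h, 3.40 (SE 0.452, limma adjusted p = 0.0337) at 24 h and 3.97 (SE 0.266, limma adjusted p = 0.000107) at 48 h. The ratios of mean linear values were 5.13, 11.4 and 16.3.

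The CDA calls at 6 and 48 h held under every alternative tried, although with an offset of 32 on the linear scale the rise at 6 h was 1.59, whereas that at 24 h was lost under 9 of 18. It was lost without 1,25(OH)2D replicate 2 (3.22, limma adjusted p = 0.154) or 3 (3.64) and without vehicle replicate 1 (3.62), 2 (3.41), 3 (3.19) or 4 (3.39), with adjusted p between 3.18e-06 and 0.357 over all alternatives, while the difference stayed at 2.38 or more. In order of mean level the groups were 1,25(OH)2D at 48, 24 and 6 h, then vehicle at 6, 48 and 24 h. Neighbouring groups overlapped except 1,25(OH)2D 6 h and vehicle 6 h.

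The effect of 1,25(OH)2D was compared between times in a limma fit of all 24 arrays, which assumes the same spread in each group. The differences 24 minus 6 h and 48 minus 6 h share the arrays of 6 h. Of the 13 probe sets 2 differed between 24 and 6 h, against 2.12% of all tested. Between 48 and 6 h 3 differed, against 2.8%. Between 48 and 24 h 0 differed, against 0.0346% of all tested. In that contrast 2 of 13 had an unadjusted p under 0.05, both of NT5E. Over all tested probe sets 9 were called in it and 1050 had an unadjusted p under 0.05. The 2 belong to the same gene, so they measure no excess. The P2RY2 effect was smaller at 24 than at 6 h by 1.96 (difference -1.96, SE 0.368, limma adjusted p = 0.00381) and at 48 than at 6 h (difference -2.28, SE 0.368, limma adjusted p = 0.000685). The ADORA2B effect was more positive at 24 h (difference 0.92, SE 0.122, limma adjusted p = 7.84e-05) and 48 h (difference 0.82, SE 0.122, limma adjusted p = 0.000269) than at 6 h. Centring arrays on their medians ended the P2RY2 call between 24 and 6 h (-1.78, limma adjusted p = 0.0639, in a range of 2.03e-05 to 0.0639) and the ADORA2B call between 48 and 6 h (0.87, limma adjusted p = 0.0585, in a range of 6.5e-05 to 0.0585). The NT5E effect on the second brightest probe set was more negative at 48 than at 6 h (difference -0.68, SE 0.18, limma adjusted p = 0.043). That call was lost in 17 of 25 alternatives, among them without 11 of the 16 arrays involved in turn, with adjusted p of 0.0102 to 0.255. For CDA the effect was 1.57 larger at 48 than at 6 h (SE 0.485), which missed the threshold (limma adjusted p = 0.105) and passed in 2 of 25 alternatives. With a weight for each group, chosen after the data were seen, it was called (limma adjusted p = 0.0471, in a range of 0.0471 to 0.245).

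Vehicle cells changed with time in culture too, and these arrays are also the controls of the treatment comparisons. Between vehicle at 24 and 6 h 4 of 13 probe sets changed, against 7.82% of all tested, and all 4 fell. P2RY2 fell by 0.93 (SE 0.26, limma adjusted p = 0.031). Leaving out vehicle 6 h replicate 1 gave a fall of 0.66 and ended that call, as did leaving out vehicle 24 h replicate 2, 3 or 4. It was lost in 8 of 17 alternatives, the others being no filter, a second quantile normalization, median centring and the offset of 32, under which the fall was 0.39, and the adjusted p ranged between 0.00214 and 0.165. NT5E fell by 0.86 on the third brightest probe set (limma adjusted p = 7.9e-05), by 0.68 on the second brightest (limma adjusted p = 0.00162) and by 0.76 on the brightest (limma adjusted p = 0.0414). The first 2 of these held in every alternative, and the call of the brightest was lost in 8 of 17 (limma adjusted p of 0.00512 to 0.147), namely with no filter (0.0869), with the replicate block (0.0558) and without any 1 of 6 of the 8 vehicle arrays (vehicle 6 h replicates 2, 3 and 4 and vehicle 24 h replicates 1, 3 and 4). Between vehicle at 48 and 24 h 0 of 13 changed in limma, against 0.316% of all tested. An unadjusted p under 0.05 was reached by 2 of 13. These were the ADA probe sets, with 0.72 on the brighter (95% interval 0.15 to 1.28) and 0.69 on the dimmer. Over all tested probe sets 82 were called in this comparison and 2138 had an unadjusted p under 0.05. The 2 ADA probe sets belong to the same gene, so they measure no excess.

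Members differed in how they followed the component on which arrays stood apart. Over the 24 arrays, with group means taken out, Pearson's r with that component was -0.911 and -0.899 for the ADA probe sets, -0.899 for P2RY2, -0.894 for P2RX4, -0.711 for CDA and 0.851 for the brightest NT5E probe set, and it was 0.12 for the second brightest. The component was computed from the same arrays, so these are descriptions. Replicate 1 of vehicle at 6 h and at 24 h and replicate 4 with 1,25(OH)2D at 24 h carried the highest P2RY2 and ADA (brighter probe set) values of their groups. Without the 4 arrays that stood apart, 3 of the 13 probe sets passed at 24 h (CDA, P2RY2 and ADORA2B) in place of 1. At 24 h this kept only replicates 2 and 3 with 1,25(OH)2D and replicates 2, 3 and 4 with vehicle. The arrays left out were chosen by their distance from the others. The share of all tested probe sets that passed in that fit is not given, so the 3 have no background to be set against.

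Members were taken whose brightest probe set was called at 1 or more times and had a highest group mean of 6 or more. Each was compared over the 24 arrays with the brightest probe sets of all 12008 tested genes, without a cut on their level. The measure was Pearson's r, which includes any treatment effect common to both genes. The 3 genes with the highest r are named for each member. For P2RY2 they were MALL (r = 0.974), INPP1 (0.965) and TWIST2 (0.964), for CDA PTGES (0.967), DENND6B (0.964) and ETNK2 (0.963), for ADORA2B LPCAT4 (0.91), CIART (0.899) and CD276 (0.888), and for NT5E (brightest probe set) IL1RAP (0.95), CAV1 (0.945) and DNAJC9 (0.943).

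Other genes of the same pathways were listed, 77 in all, of which 69 had a probe set and 40 were tested, each by its brightest probe set. None of the 12 other listed genes with a P2RY, P2RX or ADORA symbol and a probe set passed the filter. Of the 40 genes 0 rose and 1 fell at 6 h, against 3.41% of 12008 genes called, 0 changed at 24 h, against 0.516%, and 7 rose and 2 fell at 48 h, against 12%. The median change of the 40 was -0.02, 0.13 and 0.04 at the 3 times, and that of all genes -0.03, 0.01 and -0.01. The list was chosen with results known.

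**Figure D4:**
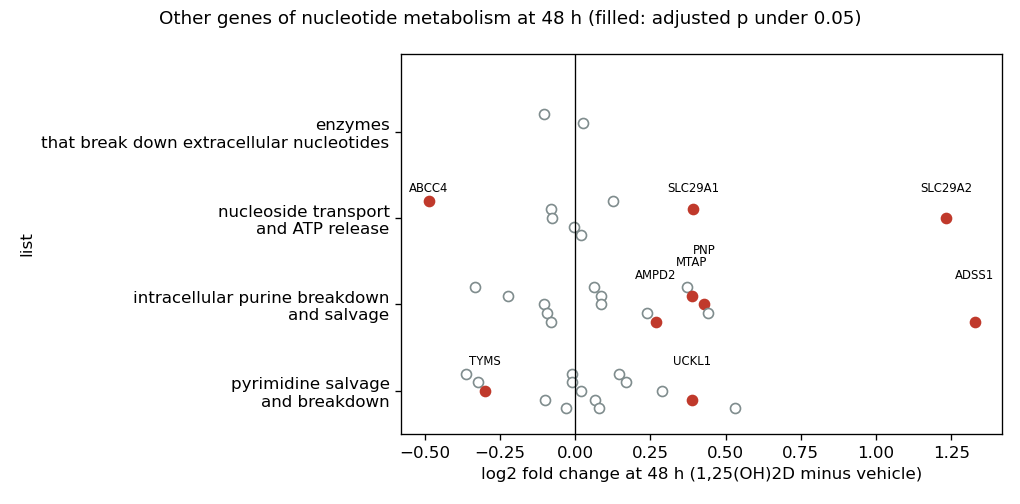
Log2 fold change at 48 h (1,25(OH)2D minus vehicle, x axis) of the 40 tested genes of 4 pathway lists (rows). Filled points passed an adjusted p of 0.05 and are named, with ADSS1 (1.33) and SLC29A2 (1.23) furthest right and ABCC4 (-0.49) furthest left among them.

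Among 8 tested genes of transport and ATP release 2 rose and 1 fell at 48 h. SLC29A2, an equilibrative nucleoside transporter, averaged 7.23 with 1,25(OH)2D and 6.00 with vehicle at 48 h and rose by 1.23 (SE 0.151, limma adjusted p = 0.00217). SLC29A1, its relative, averaged 8.72 with 1,25(OH)2D and 8.33 with vehicle and rose by 0.39. ABCC4, an exporter of cyclic nucleotides, averaged 7.63 with 1,25(OH)2D and 8.12 with vehicle and fell by 0.49. Among 15 genes of purine breakdown and salvage 4 rose at 48 h. ADSS1, which acts in AMP synthesis from IMP, rose by 1.33 (SE 0.127, limma adjusted p = 0.000671), PNP, which cleaves inosine, by 0.43, and MTAP, which salvages methylthioadenosine, by 0.39. The remaining one, AMPD2, an AMP deaminase, rose by 0.27 and was named after its value was seen. AMPD3, another AMP deaminase, fell at 6 h by 0.62 (6.21 with 1,25(OH)2D and 6.83 with vehicle, limma adjusted p = 0.0194). That call was lost without 1,25(OH)2D 6 h replicate 1, 2 or 3 and without vehicle 6 h replicate 2, 3 or 4. Among 15 pyrimidine genes UCKL1, a uridine kinase relative, rose by 0.39 and TYMS, thymidylate synthase, fell by 0.30 (limma adjusted p = 0.0489) at 48 h, while the 2 tested enzymes that break down extracellular nucleotides did not pass at any time. The count of 9 genes at 48 h became 4 to 13 when 1 array was left out, with 5 without 1,25(OH)2D replicate 3 or vehicle replicate 1 or 3 and 4 without vehicle replicate 4. Without the arrays that stood apart the count of 0 at 24 h became 12. The share of all genes called in that fit is not given, so the 12 cannot be read as a response of these pathways.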

How the data were processed

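RWPE1 cells were profiled on 24 Affymetrix U133 Plus 2.0 arrays, 4 for each of 6 groups. The authors ran gcRMA on the 24 CEL files jointly, and the deposited numbers are log2 expression values per probe set. The gcRMA version is not given in the sources used here. Arrays have no read depth, so precision rests on the number of arrays. After 62 control probe sets were left out, as many probe sets as the study kept were retained by the value that 3 of 4 arrays of at least 1 group reached (lowest 3.205), since the study's present calls were not used here. Treated and vehicle arrays of each time were compared with limma 3.58.1 in R 4.3.3. Differences between times were contrasts of 6 group means in a single model.

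The members and lists were chosen with earlier results of these data known. The rule for named pathway genes allowed at most 3 that rose and 3 that fell in each list at each time. The P2RY2 site was copied from the study's supplement, and promoters from RefSeq. Alternatives were another filter, normalization, offset, test (SAM, re-implemented), replicate block, and each array left out. A weight per group of arrays was added after the data were seen. The fits were tested on simulated data. The RT-PCR and binding data were not analysed here.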

Additional observations from a re-analysis of the deposited data

Results flagged for a closer look

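In 7 of the 78 combinations of probe set and group looked at, 1 array lay far from the other 3. The nominal rate for independent values is about 1 in 20 of such groups. The combinations share arrays and are not independent, and the share over all tested probe sets is not given. The 7 are therefore no measure of an excess among the members. With 1,25(OH)2D, the arrays were replicate 2 at 48 h for ADORA2B (10.01) and replicate 3 at 24 h for the dimmest NT5E probe set (4.456). With vehicle they were replicate 1 at 6 h for P2RY2 (5.739) and CDA (5.442), replicate 3 at 6 h for the second brightest NT5E probe set (8.394), replicate 2 at 24 h for the dimmest NT5E probe set (5.039) and replicate 4 at 48 h for CDA (5.23). Vehicle replicate 1 at 6 h is 1 of the 4 arrays that stood apart over all genes.

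In 5 cases the effect of 1,25(OH)2D differed between times in limma. The P2RY2 effect was smaller at 24 h (-1.96) and at 48 h (-2.276) than at 6 h. For ADORA2B the effect exceeded that of 6 h by 0.9235 at 24 h and by 0.8208 at 48 h. On the second brightest NT5E probe set the effect of 48 h was more negative than that of 6 h (-0.6822).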

How the results depend on the processing

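No value of the 27 probe set results changed direction in 521 values under alternatives, of which 453 kept their side of the threshold, 52 lost it and 16 gained it. The count at 24 h was the least stable. In place of 1 probe set, 0 passed with no filter, with an offset of 32 on the linear scale and with the replicate block, 2 with all 24 arrays in 1 fit, 3 by SAM and 3 without the arrays that stood apart, and leaving out 1 array gave 0 to 2. With arrays centred on their medians, the difference between 24 and 6 h gave 1 in place of 2 and that between 48 and 6 h 1 in place of 3. For vehicle at 24 against 6 h 2 in place of 4 passed with no filter, and leaving out 1 array gave 2 to 4. For vehicle at 48 against 24 h 2 in place of 0 passed without the arrays that stood apart and 1 with a weight per group. The counts of genes at 6, 24 and 48 h (3, 1 and 3) were the same when the probe sets of a gene were averaged. The causes were not tested. The shares of all tested probe sets that passed under the alternatives are not given beside these counts.

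Same-numbered arrays of 1,25(OH)2D and vehicle (12 pairs) did not deviate together throughout. Pearson's r was 0.781, -0.389, 0.625 and 0.69 for replicates 1, 2, 3 and 4 at 6 h. It was -0.907, -0.176, 0.391 and -0.767 at 24 h, and between -0.136 and 0.0217 at 48 h. The labels do not say whether equal numbers mark paired cultures, and these correlations cannot settle it. Fitted with the replicate block, the 6 h comparison gave 3 of 13 probe sets, that of 24 h gave 0 and that of 48 h gave 4, with the second brightest NT5E probe set lost. The 4 arrays per group limit what can be seen, and most of all at 24 h, where the 1,25(OH)2D arrays had the largest spread of any group.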
